A study of Homo sapiens with 14 samples.

Results

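The replication licensing genes examined here are MCM2, MCM3, MCM4, MCM5, MCM6, MCM7, MCM10, CDC6 and CDT1, which make up 9 of the 19970 protein-coding genes annotated by GENCODE on chromosomes 1 to 22 and X. They were chosen by name, for their function and not for their binding, although earlier results of these data were known. Each was followed through every ZNF143 ChIP-seq peak that lay at one of its promoters or inside the gene. A peak was taken as a promoter peak when its centre was no more than 2 kb before or 1 kb after an annotated transcription start site (TSS) of the gene, and a gene-body peak had its centre elsewhere in the gene.

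The peaks come from HEK293T, an established human embryonic kidney line, in which ZNF143 carries an FKBP12F36V degron tag, from a single clone labelled HEK_CloneZD29. The small molecule dTAG-V1 recruits an E3 ubiquitin ligase to the tag, so that tagged ZNF143 is degraded. ChIP-seq with a Proteintech antibody to ZNF143 covered 4 samples without treatment and 4 that received 0.5 µM dTAG-V1 for 30 min, and all 8 carried the same tag. The study reports that this antibody also recognizes CTCF, and that its signal at CTCF sites persisted and grew stronger once ZNF143 was depleted. A peak here is therefore signal of the antibody, and which protein it marks was not tested. The data analysed here are 1 pooled list of narrow peaks per condition, in hg38 coordinates, so that no value per replicate, no read depth and hence no test between conditions could be had.

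Licensing is the step at which an origin of replication is prepared for use. The origin recognition complex, with CDC6 and CDT1, loads the hexameric MCM helicase, whose subunits are MCM2 to MCM7, around DNA as an inactive double hexamer. The helicase is then activated in S phase with the help of CDC45, the GINS complex and MCM10. Genes of this pathway are transcribed mainly before S phase and are textbook targets of E2F transcription factors. ZNF143 is a zinc-finger activator that binds the Staf binding site (SBS) in promoters, and CTCF is a zinc-finger protein with a different motif that binds promoters as well as many distal sites.

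Matrices for 3 motifs were learned from the deposited peaks and used to find motifs. The most frequent letters were TTTCCCAGnATCCCnTGC for SBS1, nGACTACAnTTCCCAGnnTnC for SBS2 and nnnCCACnAGGGGGCnCnn for CTCF, where n stands for a position with no letter in the majority of sites. The match probability used below is the chance of so good a match at 1 position of random sequence with the base composition of the genome, and thresholds of 5e-05 and 1e-05 were applied to it. It measures the likeness of a sequence to a matrix and not binding.

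The following 5 stretches of hg38 show the matches on which the account of these genes turns: those close to a promoter-peak summit at CDC6, MCM3, CDT1 and MCM10, and the one CTCF match in a promoter peak of MCM5. Each is printed 5′ to 3′ on the strand of the gene, with the bases of matches at 1e-05 or lower in capitals. A weaker SBS2 match in the CDC6 stretch, with a match probability of 4.2e-05, is left in lower case. The first pair shows SBS2 and SBS1 matches that overlap, the CDT1 stretch shows 2 SBS1 matches that are separated by a pair of bases and read on the opposite strand, and the others show CTCF matches.
CDC6 promoter (chr17:40287559-40287654, + strand, SBS): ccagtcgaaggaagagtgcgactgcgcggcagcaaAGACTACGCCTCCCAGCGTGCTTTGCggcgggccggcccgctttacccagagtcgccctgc
MCM3 promoter (chr6:52285019-52285114, − strand, SBS): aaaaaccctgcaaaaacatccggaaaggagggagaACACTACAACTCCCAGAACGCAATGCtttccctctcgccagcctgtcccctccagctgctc
CDT1 intron 1 (chr16:88804149-88804256, + strand, SBS): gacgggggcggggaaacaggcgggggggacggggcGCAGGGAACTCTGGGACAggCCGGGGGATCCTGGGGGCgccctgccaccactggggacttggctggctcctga
MCM10 promoter (chr10:13161313-13161401, + strand, CTCF): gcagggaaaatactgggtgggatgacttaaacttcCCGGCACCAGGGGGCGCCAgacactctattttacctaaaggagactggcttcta
MCM5 promoter (chr22:35399294-35399382, + strand, CTCF): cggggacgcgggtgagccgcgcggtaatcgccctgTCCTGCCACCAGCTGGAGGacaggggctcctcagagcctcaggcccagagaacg

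Of the 9 licensing genes, 8 had a promoter peak in the untreated list and the same 8 in the dTAG-V1 list, whereas 40.5% and 48.2% of all protein-coding genes did. MCM6 had none in either list. For 7 of the 9 genes an untreated promoter peak and a dTAG-V1 peak overlapped by at least 1 bp, compared with 35.9% of protein-coding genes. The exception among the 8 was CDT1, whose promoter peaks lay in different places in the lists. The genes contributed 8 promoter peaks to the 20429 peaks of the untreated list and 11 to the 35287 of the dTAG-V1 list.

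The peaks differed widely in height. MACS2 gives each peak a score that is 10 times its −log10 q-value and a fold enrichment over the local background at its summit, and peaks were ranked by score within their own list, where lower percentages stand for higher scores. A score depends on the depth of the pooled libraries, which is unknown, and the lists differ in length. Scores and fold enrichments were therefore not compared between conditions, and a shift in rank is not a change in signal.

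**Figure D1:**
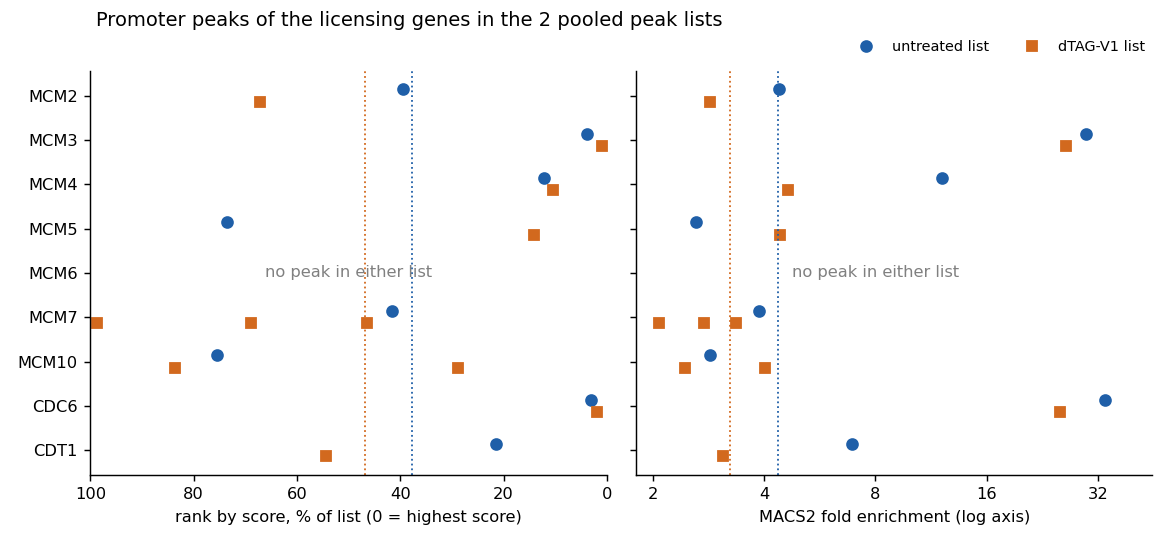
Rank by score as a percentage of the list (left, 0 is the highest score) and MACS2 fold enrichment (right, log axis) of every promoter peak of the 9 genes, with circles for the untreated list, squares for the dTAG-V1 list and dotted lines at the median of all protein-coding promoter peaks of that list. CDC6 and MCM3 were in the top 5% of both lists, MCM2, MCM5, MCM7 and MCM10 ranked below the median in the untreated list, and MCM6 had no peak.

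CDC6 and MCM3 were the members with the highest peaks. A promoter peak in the highest-scoring 10% of the list was present at 2 of the 9 genes in each list, CDC6 and MCM3 in both, beside 10.1% of protein-coding genes for the untreated and 13.4% for the dTAG-V1 list.

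CDC6, the ATPase that joins the origin recognition complex and helps to load the helicase (ENSG00000094804, chr17:40287879-40304657, + strand), had 1 peak per list. The untreated peak at chr17:40287353-40287990 had a fold enrichment of 33.5, a −log10 q-value of 5250 and rank 635, or 3.11%. The dTAG-V1 peak at chr17:40287331-40288020 had a fold enrichment of 25.2, a −log10 q-value of 1536 and rank 691, or 1.96%. Both summits lay upstream of the canonical TSS, at −264 and −251 bp (negative distances are upstream in the direction of the gene). Within 24 bp of either was the SBS2 match printed above, centred at −275 bp with a match probability of 1.2e-09, which overlapped an SBS1 match with a match probability of 9e-09. Only 1.96% of all protein-coding genes had an SBS match as good as this within 500 bp of their canonical TSS. No CTCF match at 5e-05 lay in either CDC6 peak.

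CDT1, which brings the MCM complex to the origin and is held in check by geminin (ENSG00000167513, chr16:88803789-88809258, + strand), had promoter peaks in both lists that did not overlap. The untreated peak at chr16:88804125-88804623 was in intron 1, with its summit at 443 bp from the canonical TSS, a fold enrichment of 6.92, a −log10 q-value of 74.8 and rank 4362, or 21.4%. It held the 2 adjacent SBS1 matches printed above, TGTCCCAGAGTTCCCTGC with a match probability of 1.2e-07 and GCCCCCAGGATCCCCCGG with a match probability of 3e-07, centred −40 and −20 bp from the summit. Another match, CATCCCAGCCTGCCCTTC with a match probability of 4e-07, was 354 bp away from it. A match as good as the best of these was found within 500 bp of the canonical TSS of 7.93% of genes. The same peak also held a CTCF match with a match probability of 1.3e-05, centred 178 bp from the summit.

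In the dTAG-V1 list no peak covered that intronic region. The promoter peak of CDT1 there, chr16:88802360-88803021, was upstream of the gene with its summit at −988 bp, a fold enrichment of 3.09 and rank 19185, or 54.4%, and contained no match to any of the 3 matrices. A gene-body peak at chr16:88809012-88809415 was also present in the dTAG-V1 list only. It straddled the 3′ end of CDT1, with its summit past the end of the gene, ranked at 95.5% of the list and held no match either. Each of these 3 positions was thus called in 1 pooled list only. The intronic peak was far above the lowest −log10 q-value of its list, 2.01, and the other peaks were closer to it, at 10.2 and 3.28. Whether signal differed at the position that the other list leaves out was not tested.

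Among the helicase subunits the peaks ranged from the top of the list to absence. MCM3 (ENSG00000112118, chr6:52264014-52284881, − strand) had the highest peak of the hexamer genes. In the untreated list it lay at chr6:52284699-52285444 with a fold enrichment of 29.7, a −log10 q-value of 4368 and rank 787, or 3.85%. In the dTAG-V1 list it lay at chr6:52284723-52285464 with a fold enrichment of 26.3, a −log10 q-value of 2684 and rank 361, or 1.02%. The 2 summits were at −311 and −309 bp, and the SBS2 match ACACTACAACTCCCAGAACGC (match probability 1.1e-08) was centred −16 and −18 bp from them. In the window around the canonical TSS, a match as good was found for 4.04% of genes. The same peaks also contained CTCF matches with match probabilities of 2.3e-06 and 7.1e-06, which were farther from the summits, centred −184 and −371 bp from the untreated one.

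MCM3 had a second region in the dTAG-V1 list only, at its other end. The peak at chr6:52263644-52264282 overlapped the last exon, but its centre and summit were downstream of the gene, so that it was neither a promoter nor a gene-body peak by the rule used here. It ranked 10670, or 30.2%, with a fold enrichment of 3.76. Unlike the promoter peak it held no SBS match, and its summit was −15 bp from a CTCF match with probability 3.5e-08, shown here in capitals on the strand of the gene.
MCM3 gene end (chr6:52263866-52263954, − strand, CTCF): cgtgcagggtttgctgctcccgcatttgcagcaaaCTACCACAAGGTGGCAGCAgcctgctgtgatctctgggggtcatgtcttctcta

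MCM4 (ENSG00000104738, chr8:47960185-47978160, + strand) shares its promoter with PRKDC, the catalytic subunit of the DNA-dependent protein kinase, which is transcribed in the opposite direction, and its peak cannot be assigned to one of the pair. The untreated peak at chr8:47960157-47960978 had a fold enrichment of 12.2 and rank 2467, or 12.1%. The dTAG-V1 peak at chr8:47960175-47960916 had a fold enrichment of 4.65 and rank 3719, or 10.5%. Both summits were far upstream of the canonical MCM4 TSS, at −672 and −619 bp, on the PRKDC side of it. They still lay inside the annotated MCM4 gene, though outside its canonical transcript. An SBS1 match with probability 3.6e-07 was centred −36 bp from the untreated summit and −90 bp from the other. A weaker CTCF match, with probability 3.8e-05, overlapped this SBS1 match, −31 and −84 bp from the summits. The best CTCF match, with probability 4.7e-06, was near the MCM4 TSS, at −93 bp from it and 579 bp from the untreated summit.

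MCM2 and MCM7 had untreated peaks of middle rank that covered their canonical TSS, whereas no dTAG-V1 peak covered it at either gene, and both share the peak with a divergent neighbour. At MCM2 (ENSG00000073111, chr3:127598410-127622436, + strand), whose neighbour is TPRA1, the untreated peak at chr3:127598350-127598789 had a fold enrichment of 4.4 and rank 8060, or 39.5%. The dTAG-V1 peak at chr3:127598424-127598886 had a fold enrichment of 2.85 and rank 23668, or 67.1%. The summit was in the untranslated part of exon 1 at 14 bp from the TSS in the untreated list and in intron 1 at 107 bp in the dTAG-V1 list. The sole match in these peaks was a weak SBS1 match with a match probability of 1.7e-05, and 70.5% of genes had one as good or better near their TSS.

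At MCM7 (ENSG00000166508, chr7:100092233-100101940, − strand), whose neighbour AP4M1 encodes a subunit of an adaptor complex, the untreated peak at chr7:100100576-100102295 was 1720 bp wide, against a median of 490 bp for promoter peaks of that list, and had a GC content of 66.9%. Its fold enrichment was 3.87 and its rank 8478, or 41.5%. In the dTAG-V1 list this stretch carried 3 separate peaks, ranked at 46.4%, 68.9% and 98.7%. The first and second overlapped the untreated peak, and the third, chr7:100100336-100100567, lay beyond it in intron 1. The untreated peak held 10 SBS matches at 5e-05, but the best, ATTCCCAGGTTCCCGCGC with a match probability of 3.8e-07, was 464 bp from its summit. The closest to that summit, with a match probability of 5e-06, was 138 bp from it. In the dTAG-V1 peaks the SBS1 matches CCTCCCGCCCGGCCCCTC (match probability 1.5e-06) and TTCCCCGGGAGGCTCCCC (match probability 5e-06) were 60 and 52 bp from a summit.

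MCM5 (ENSG00000100297, chr22:35400134-35425431, + strand) had a low peak in the untreated list and a higher-ranked one in the dTAG-V1 list. The untreated peak at chr22:35399585-35400367 had a fold enrichment of 2.61 and rank 15018, or 73.5%. The dTAG-V1 peak at chr22:35399174-35400366 had a fold enrichment of 4.43 and rank 4982, or 14.1%. The summits were at −264 and −227 bp. No match at 1e-05 lay near either summit. The dTAG-V1 peak was 1193 bp wide and reached farther upstream, where it covered the CTCF match CCTCCAGCTGGTGGCAGGA (match probability 2.1e-06), centred −575 bp from its summit and outside the untreated peak.

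MCM5 also had the one gene-body peak of the untreated list, at chr22:35424488-35424754 in the 3′ untranslated part of exon 17. It had a fold enrichment of 3.45 and rank 12321, or 60.3%, and was not matched by a dTAG-V1 peak. Its summit was −2 bp from a weak SBS1 match, TTACCCAGAAGTCTGAGT, with a match probability of 4.1e-05. With MCM5 in the untreated list and CDT1 in the dTAG-V1 list, 1 of the 9 genes had a gene-body peak in each, beside 18.6% and 30.6% of protein-coding genes.

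MCM6 (ENSG00000076003, chr2:135839626-135876443, − strand), the remaining subunit of the hexamer, had no peak at its promoter or in its body in either list. The nearest peak centre was 108874 bp from its canonical TSS without treatment and 37563 bp after dTAG-V1. Of the 1247 protein-coding genes on chromosome 2, 32.9% and 38.9% had a promoter peak in the respective lists. The medians of the other 22 chromosomes were 41.2% and 49.5%, with ranges of 28.4% to 49.4% and 33.5% to 57.7%. Whether this bears on MCM6 was not tested. The best SBS match within 500 bp of the MCM6 TSS had a match probability of 5.6e-06, and 44.8% of all genes had one as good. The best CTCF match had a match probability of 6.3e-05. A region missing from a list may lie below the threshold of the call, so that binding at MCM6 was not detected rather than shown to be absent.

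MCM10 (ENSG00000065328, chr10:13161558-13211110, + strand), which is not a part of the hexamer and acts when the helicase is activated, was the one member with a CTCF match at 1e-05 within 100 bp of a promoter-peak summit. The untreated peak at chr10:13161246-13161491 had a fold enrichment of 2.86 and rank 15414, or 75.5%. The dTAG-V1 peak at chr10:13161195-13161518 had a fold enrichment of 4.02 and rank 10170, or 28.8%. The summits, at −221 and −192 bp, lay 20 and −9 bp on either side of CCGGCACCAGGGGGCGCCA (match probability 1.5e-08, at −201 bp), a CTCF match that 0.786% of genes equalled. Neither peak held an SBS match. A second promoter peak, chr10:13161847-13162100 in intron 1, was present in the dTAG-V1 list only, at 83.6% of the list and with no match.

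**Figure D2:**
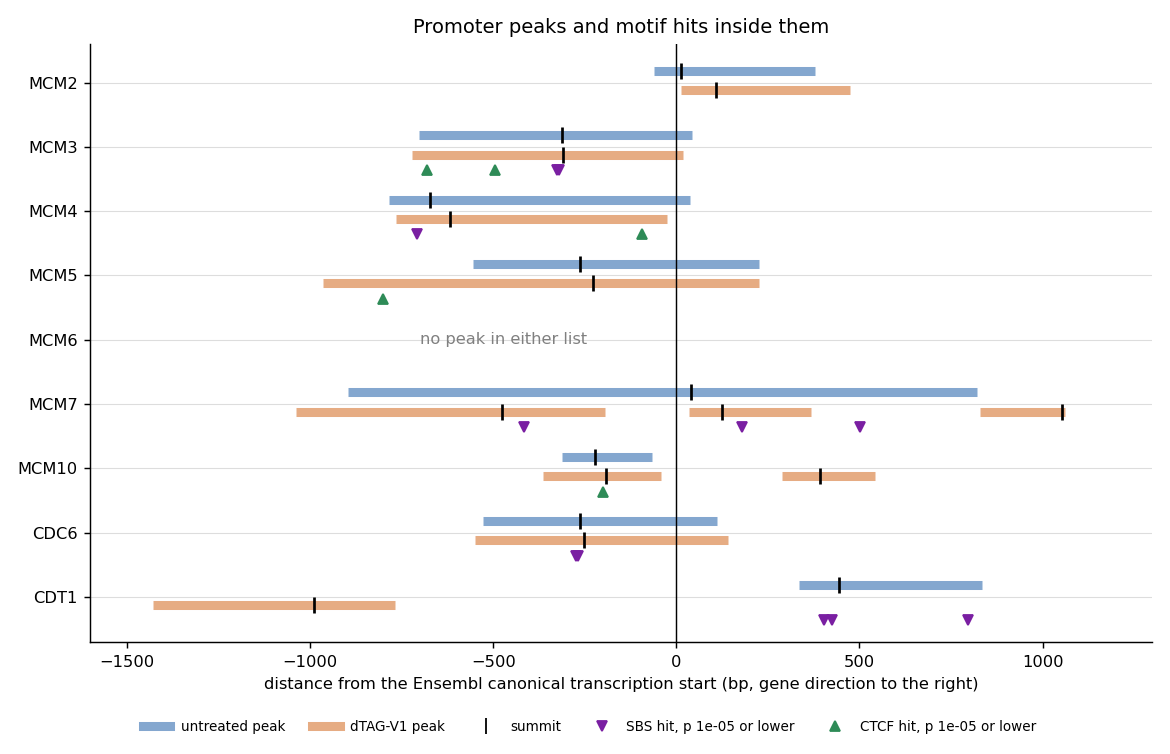
Promoter peaks (bars, upper for the untreated and lower for the dTAG-V1 list) and their summits (black ticks), drawn by distance in bp from the canonical TSS with the gene running to the right, and SBS (downward triangles) and CTCF (upward triangles) matches at 1e-05 or lower inside the peaks. At CDC6, MCM3 and MCM10 the match was within 24 bp of both summits, at MCM5 the CTCF match was −575 bp from the summit of its peak, and the CDT1 peaks of the lists lay apart.

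Read over the 8 genes with a promoter peak, motif content was close to that of promoter peaks in general. An SBS match at 5e-05 lay in a promoter peak of 7 of the 8 genes, all but MCM10, beside 79.8% of the 10307 genes with a promoter peak in either list. At 1e-05 it was 5 of 8 beside 52.8%. A CTCF match at 5e-05 lay in a promoter peak of 6 of the 8, all but MCM2 and CDC6, beside 57.8%, and at 1e-05 of 4 of 8 beside 32.8%. Close to a summit, an SBS match at 1e-05 within 100 bp of a summit was present at 5 of 8 genes (MCM3, MCM4, CDC6, CDT1 and, in the dTAG-V1 list alone, MCM7, background 39.7%), and a CTCF match at 1 of 8 (MCM10, background 23.0%). At 5e-05 these counts were 6 and 2, with MCM2 added for SBS, in the dTAG-V1 list alone, and MCM4, which then had both, for CTCF. The share of all genes within 100 bp was not computed at 5e-05, so these 2 counts have no background beside them.

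A match of moderate quality is common around start sites. Within 500 bp of the canonical TSS, 58.1% of all protein-coding genes had an SBS match at 1e-05, and even among genes with no promoter peak in either list the share was 51.0%. In this window the best SBS match was equalled by 7.93% of genes or fewer at CDC6, MCM3 and CDT1, by 22.2% at MCM7, by 42.8% at MCM4, by 70.5% at MCM2 and by 76.5% at MCM5. MCM10 had an SBS match in the window too (match probability 7.4e-07, equalled by 15.6% of genes), but at 242 bp from its TSS it lay outside every peak. The SBS1 match beside the MCM4 summits is farther from the MCM4 TSS than this window reaches.

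**Figure D3:**
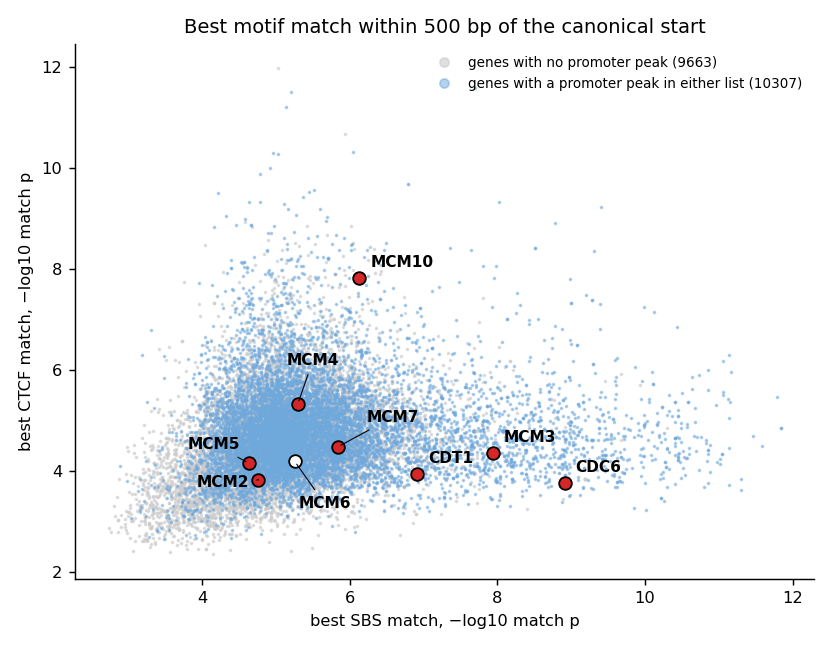
Best SBS match (horizontal) and best CTCF match (vertical) within 500 bp of the canonical TSS for each protein-coding gene, as −log10 of the match probability, with genes with a promoter peak in either list in blue, genes without one in grey, licensing genes in red and MCM6, which had no peak, as the open circle. CDC6, MCM3 and CDT1 stand to the right with SBS matches of probability 1.2e-09, 1.1e-08 and 1.2e-07, and MCM10 stands at the top with a CTCF match with probability 1.5e-08.

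The 7 genes whose promoter peaks overlapped between the lists were then placed among all 6368 promoter regions that the lists share. Of these regions, 72.9% ranked higher in the dTAG-V1 list, with a median shift of −3.28 percentage points (a negative shift is toward the top of the list). Because the dTAG-V1 list is longer, a region that keeps its rank number moves toward the top in percent, so that the length of the list enters every shift. A region took its motif class from matches in its peak of either list, so that a wider peak in either list could add a match. Regions with a CTCF match at 1e-05 and no SBS match shifted by a median of −18.0 points, regions with neither by −9.92 points, regions with both by −2.61 points and regions with an SBS match and no CTCF match by −1.61 points. The classes did not start alike: their median untreated ranks were 52.9%, 52.8%, 20.7% and 12.5% in the same order, and a region near the top has little room to move up. MCM5 shifted by −59.4 points and MCM10 by −46.6 points, and both belong to the class with a CTCF match alone, although the match at MCM5 lies in the part of the dTAG-V1 peak that the untreated peak does not reach. MCM3, MCM4 and CDC6 were near the top in both lists, with shifts of −2.8, −1.5 and −1.2 points, of which those of MCM4 and CDC6 went with a later rank number in the dTAG-V1 list (3719 after 2467, and 691 after 635). MCM7 and MCM2 ranked lower in the dTAG-V1 list, by 4.9 and 27.6 points.

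MCM5 and MCM2 were at opposite ends of this range. Only 1.27% of the shared promoter regions had a lower value than MCM5 and 3.74% a lower one than MCM10, whereas 92.9% had a lower one than MCM2, whose peaks had neither motif at 1e-05. With 1 pooled list per condition these shifts carry no error, and the parts of depth, list length and starting rank in them were not tested.

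**Figure D4:**
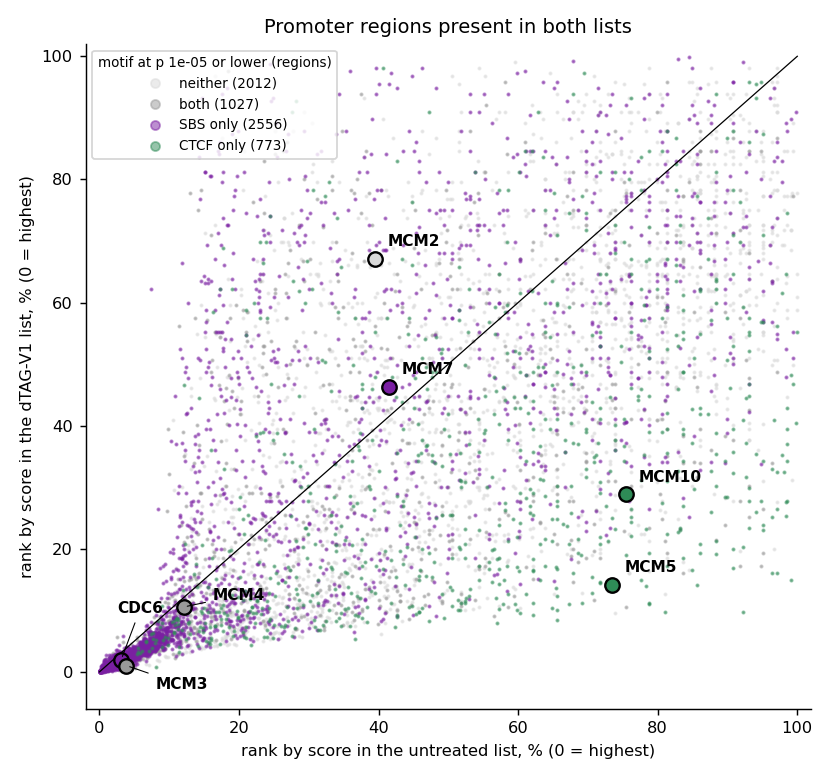
Rank by score in the untreated list (horizontal) and in the dTAG-V1 list (vertical), both as a percentage with 0 as the highest score, for the 6368 promoter regions present in both lists, coloured by the motifs found at 1e-05 in the peak of either list, with the 7 licensing genes as large circles and a diagonal where ranks are equal. MCM5 and MCM10 lie far below the diagonal, at 14.1% and 28.8% in the dTAG-V1 list, and MCM2 lies above it at 67.1%.

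The promoters themselves were searched for letters of known factors, on both strands, in 250 bases before to 50 after the start (RefSeq, GRCh38.p14). Of the 9 genes, 7 were matched: MCM2, MCM3, MCM6, MCM7, MCM10, CDC6 and CDT1. One of the E2F sites TTTCGCGC, TTTGGCGC or TTTCCCGC was present in 6 of the 7, all but MCM10, and in 3.84% of 15315 protein-coding promoters. The letters CCAAT were present in 5 of 7 and in 36.6% of all promoters, and GGGCGG in 5 of 7 and in 59.2%. CACGTG was found in MCM2 and MCM7 (8.88% of all), ACTACA in MCM2 and CDC6 (8.62%), TCCCAG in MCM3 (35.1%) and ACTTCCGG in none (6.33%). The SBS sites of CDC6 and MCM3 printed above lie upstream of the searched window.

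MCM6, the gene without a peak, had the most E2F matches of the 7 when each strand was counted. Counted by separate places, it had as many as MCM3 and MCM7. TTTGGCGC and TTTCGCGC overlapped on opposite strands at −152 to −141 and again at −90 to −79 from the start, giving the same 12 bases each time, in capitals here, in the 250 bases before its start.
MCM6 (chr2:135876444-135876693, − strand, RefSeq, GRCh38.p14): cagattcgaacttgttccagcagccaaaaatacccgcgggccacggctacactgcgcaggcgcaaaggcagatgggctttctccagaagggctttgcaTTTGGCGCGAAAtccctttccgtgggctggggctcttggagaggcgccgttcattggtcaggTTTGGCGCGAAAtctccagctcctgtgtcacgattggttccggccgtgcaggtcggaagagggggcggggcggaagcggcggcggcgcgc
The E2F letters were thus present in the promoters of CDC6 and MCM3, which had high peaks, and in that of MCM6, which had none. A match of letters describes the sequence and is not a site of binding.

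Finally, the licensing genes were set beside 4 lists of genes that act with them. Of 10 other licensing genes, which comprise those of the origin recognition complex, geminin, MCMBP, KAT7 and LRWD1, 9 had a promoter peak before and 10 after treatment. The highest were KAT7, a histone acetyltransferase also known as HBO1, at 1.78% and 1.01% of the lists, and ORC3 at 5.07% and 3.7%. ORC5 had a promoter peak in the dTAG-V1 list only, at 68.9%. In a list of 20 genes drawn up for helicase assembly and activation, 17 and 18 had a promoter peak. The list was drawn widely and also holds CLSPN, TIMELESS, TIPIN, MCM8, MCM9 and HROB, each with a promoter peak before and after treatment. CDC45 ranked 32 and 55 in the lists, above every one of the 9 licensing genes, and GINS3 stood at 2.8% and 4.3%. TOPBP1 had one in the dTAG-V1 list only, at 70.9%.

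The share was lower among genes of the replication fork and of the E2F and RB families. A promoter peak was present at 18 and 23 of 28 fork genes in the respective lists. The highest were the flap endonuclease FEN1, at rank 77 and 158, and the DNA ligase LIG1, at rank 440 and 539. A peak in the dTAG-V1 list only was found at 6 fork genes, among them CHAF1A, a subunit of chromatin assembly factor, at 13.4% and RFC2, of the clamp loader, at 63.2%. The 1 fork gene with a peak in the untreated list only was POLA1, the catalytic subunit of polymerase alpha, at 20.7%. Of 13 E2F and RB family genes, 8 and 9 had one, led by the pocket protein genes RBL1 (rank 70 and 310) and RBL2 (rank 746 and 659), and E2F8 had one in the dTAG-V1 list only, at 59.5%. All 4 lists exceeded the 40.5% and 48.2% of all protein-coding genes. The lists were not matched to other genes for expression or promoter type. For genes with a peak in 1 list only, no share of all protein-coding genes was computed, and the dTAG-V1 list is the longer one.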

How the data were processed

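ZNF143 ChIP-seq peaks from 4 untreated and 4 dTAG-V1 samples were analysed as 1 pooled list per condition. The 6 CTCF samples of the series were not analysed here. Groups, dose and time follow the labels, although the peak names of the untreated list refer to DMSO. According to the methods, the authors mapped reads with bwa mem, kept proper pairs with SAMtools, marked duplicates for removal with Picard and ran MACS2 in narrow mode without naming a control, after which peaks off the canonical chromosomes or in the blacklist were discarded. Peaks found in every untreated replicate and in any dTAG-V1 replicate were kept in the study, and whether the deposited lists were filtered so is not given in the sources used here.

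The score is the authors' integer score, 10 times the −log10 q-value. The fold enrichment is the authors' ratio at the summit over local background, and the −log10 q-value is the authors' from the same call. The summit offset in bp is also deposited. There were 0 columns of per-sample values left unused. Depth is unknown, so that no precision can be given.

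The scripts used hg38 and GENCODE 44 under Python 3.11.15, with pysam 0.24.0, numba 0.67.0, pandas 2.3.3 and numpy 2.4.6. No peak ended past its hg38 chromosome. Peaks were ranked by score within a list, with ties at the better rank. Matrices were learned from merged peaks on odd-numbered autosomes over 10 rounds (sites at p 1e-06, pseudocount 0.8, at most 2 mismatches to a written consensus in the first round). Peaks were scanned at p 5e-05, and SBS stands for SBS1 or SBS2. Learning, scanning and placing of peaks were tested on simulated data. Named genes were all 9 members, genes sharing a member's promoter peak, and from each of 4 related lists the 2 genes with the highest-scoring promoter peak in each list and up to 3 with a promoter peak in 1 list only. The members, lists and matrices were chosen with earlier results of these data known. No test was made, since the lists hold no value per replicate. The alternatives were other promoter windows, canonical start sites, placing by summit, stricter peaks, stricter or nearer motif matches, and matrices from even-numbered autosomes.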

Additional observations from a re-analysis of the deposited data

How the results depend on the processing

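Of 64 recomputed counts, 55 stayed within 1.5 times the reported count and 9 did not. With the highest-scoring 10000 peaks of each list, the members with a promoter peak fell from 8 to 4 in the dTAG-V1 list and from 7 to 3 in both lists, and the gene-body peaks from 1 to 0 in either list. The gene-body peak count of the dTAG-V1 list was also 0 when peaks were placed by summit or limited to a −log10 q-value of at least 4, and 2 when any overlap with the gene counted, a choice made after seeing the data. The gene-body region with an SBS match was lost at p 1e-05 (0), and within 100 bp of a summit 2 members had a CTCF match at p 5e-05. These alternatives keep fewer peaks or matches by construction, except those by overlap and by summit. No paired analysis was possible because the lists hold no value per replicate. The absence of a peak near the threshold of the call and a difference between the lists cannot be told apart from depth, which is unknown.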
